A study of Mus musculus with 6 samples.

Results

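Erk, the kinase at the end of the Ras, Raf and Mek cascade, switches on genes whose products then restrain the same cascade. It also switches on others whose products carry its signal on. The genes described here are 10 transcripts of both kinds that are listed in the literature as readouts of Erk activity. Together called feedback genes below, they are *Dusp4*, *Dusp5*, *Dusp6*, *Spry1*, *Spry2*, *Spry4*, *Spred1*, *Spred2*, *Etv4* and *Etv5*. They were taken by name out of 21966 genes in the deposited RNA-seq table, and all 10 were present. Dual-specificity phosphatases (Dusp) remove phosphate from MAP kinases, and Sprouty and Spred proteins act further up, between receptor tyrosine kinases and Raf. Etv4 and Etv5 belong to the PEA3 group of ETS transcription factors, which carry the signal on to their own target genes and are held back by the repressor Capicua when Erk is inactive. In gut epithelium and in colon tumors these transcripts commonly serve as a proxy for the output of the pathway.

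The RNA-seq compared primary colonic tumor cells with and without a peptide that inhibits the Group I p21-activated kinases (Paks), which are known to phosphorylate Raf and Mek. Both groups carried the *CDX2P-NLS-Cre* transgene and *APC*Δ/+, and the *PID*+ cells (3 samples, labelled as mice 4, 7 and 26) in addition *ROSA26-PID*, which the *PID*- cells (3 samples, labelled as mice 1, 2 and 3) lacked. The parental Cre and *Apc* mice were C57BL6/J. The transgene codes for a Cre recombinase whose activity lies mostly in epithelium of the large and distal small intestine, where it deletes the floxed *Apc* allele. The inhibitor, an autoinhibitory fragment of Pak1 fused to GST, is transcribed from the *Rosa26* locus once Cre has removed a stop cassette, together with eGFP. The labels describe the *PID*- samples as normal and untreated although their protocol field says tumor induction, and according to the methods the lines were grown from tumors. The numbers that the labels give to the *PID*- mice differ from those the study gives to its *PID*- lines, so which lines these samples came from is unclear. The lines were grown from adenomas of cohorts whose tumors were counted at 8 months of age, and no age is stated for the single donors. The 3 sets of reads of a condition were merged by the authors before quantification. The table thus holds 1 pooled FPKM (fragments normalized to transcript length and library size) per gene and condition with CuffDiff's confidence interval, and the pool cannot show whether the lines of a group resembled each other. No difference below has a replicate check and no test was run.

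Markers fixed for colon epithelium were high in both conditions, although the intestinal identity genes *Vil1* and *Cdx1* were listed at or near 0 and *Cdx2* was at 0.542 with PID and 8.04 without it. The 12 epithelial markers summed to an FPKM of 9188 with PID and 4995 without it, with *Krt18* and *Krt8* the most abundant, at 2843 and 2745 in *PID*+ cells. The 11 fibroblast or mesenchyme markers summed to 26.6 with PID and 1041 without it. Most of the latter sum was *Vim*, with an FPKM of 997, and of the other listed genes *Lum* was at 0 in both conditions and *Dcn* and *Thy1* were at 0 in *PID*+ cells. Of the markers that reached an FPKM of 2 in either condition, 8 of 10 epithelial ones were higher and all 6 mesenchymal ones lower in *PID*+ cells. *Cdx2*, *Lgals4*, *Col1a2*, *Col3a1* and *Dcn* reached it in *PID*- cells alone, so the minimum itself fixed their direction. The leukocyte markers summed to 22.1 with PID and 17.2 without it, nearly all of it *Cd68*, while *Ptprc*, carried by all leukocytes, was at 0.0264 and 0.00811. Endothelial markers summed to 3.79 and 1.17, most of it *Kdr*, and mast cell markers to 0.749 and 0.409, with *Cpa3*, *Fcer1a*, *Tpsb2* and *Ms4a2* listed at 0 in both. The epithelial and mesenchymal markers thus differed between the same pools as every gene below, and their part in those differences was not tested. In pooled bulk RNA, fewer cells of a type cannot be told apart from less RNA per cell.

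The feedback genes did not share a direction. Of the 10 genes, 5 had higher and 5 had lower FPKM in *PID*+ cells, although *Spry1*, *Spry2* and *Etv4* turned lower when the FPKM of *Gapdh* was set equal and *Etv5* turned higher relative to its chromosome. Their median log2 change, log2((FPKM in *PID*+ + 1)/(FPKM in *PID*- + 1)), was -0.14. Among all 11035 genes that reached an FPKM of 2 in either condition, 49.4% were higher in *PID*+ cells and the median was -0.0075. On this scale, with 1 added to each FPKM, *Dusp5* was the only one of the 10 to pass 3-fold upward, where 2.08% of all genes did so, and none passed it downward, against 3.42% of all genes. With equal *Gapdh*, *Dusp5* did not pass upward (0.825% of all genes did) and *Spred2* passed downward (6.5% of all genes). At 2-fold on this scale the count was 1 higher (*Dusp5*) and 1 lower (*Spry4*), with 6.14% and 7.05% of all genes beyond these limits. By the plain ratio of FPKM, *Dusp5* was over 3-fold higher (3.4% of all genes) and *Spry4* over 3-fold lower (4.69%). At 2-fold, plain ratios again gave 1 higher (7.64% of all genes) and, with *Spred2* at 2.03-fold, 2 lower (8.68%). All 10 genes reached the minimum, but *Spry4* did so in *PID*- cells alone, so its direction was fixed by the minimum and its place in these counts is a description only. The deposited intervals of the conditions overlapped for all 10 genes. They were apart in 0.362% of all genes in the upward and 1.07% in the downward direction. *Gapdh*, the reference transcript of the study's PCR, was at 1.54 times its *PID*- level in *PID*+ cells, and setting it equal shifts the plain FPKM ratio of a gene by -0.63 on the log2 scale, and less where 1 is added to a low FPKM. Adding the FPKM of the 10 genes gave 213 with PID and 194 without it.

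**Figure D1:**
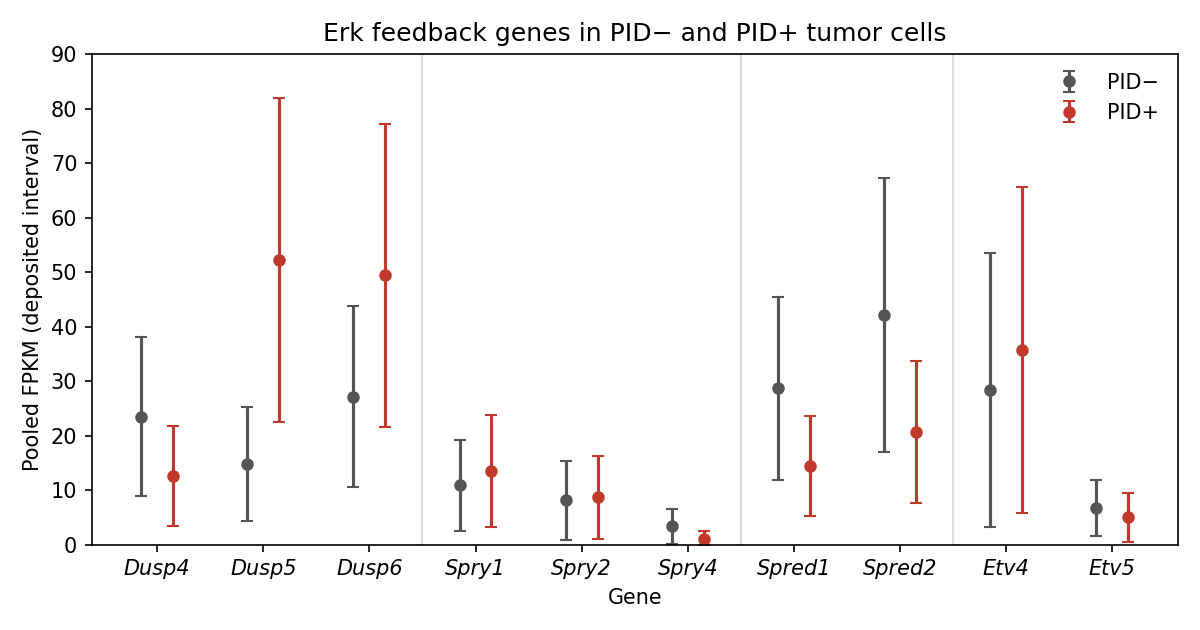
Pooled FPKM (points, linear axis) of the 10 feedback genes in *PID*- (grey) and *PID*+ cells (red), with the confidence intervals that CuffDiff gave (bars), which hold no spread between lines. *Dusp5* is at 14.8 without PID and 52.2 with it, *Spred2* at 42.1 and 20.7, and every pair of intervals overlaps.

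The phosphatases were the family that differed most among its own members. *Dusp5* (ENSMUSG00000034765.6, chromosome 19 of GRCm38 from 53529109 to 53542431, plus strand) encodes a nuclear phosphatase that acts on Erk and also anchors it in the nucleus. Its FPKM was 52.2 in *PID*+ cells (interval 22.5 to 81.8) and 14.8 in *PID*- cells (4.41 to 25.2). The log2 change was 1.75 ± 0.62 (1 SD from the deposited intervals, without replicate error), higher than in 98.5% of all genes tested, and 1.15 with equal *Gapdh*. The lower bound in *PID*+ cells lay just under the upper bound in *PID*- cells, so the intervals overlapped at their ends. *Dusp5* was the most abundant of the 10 genes in *PID*+ cells and the 6th in *PID*- cells.

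*Dusp6* (ENSMUSG00000019960.7, chromosome 10 from 99263231 to 99267489, plus strand) encodes the cytoplasmic phosphatase that is selective for Erk and is a widely used readout of it. It had an FPKM of 49.4 with PID (21.6 to 77.2) and 27.2 without it (10.5 to 43.8), a log2 change of 0.84 ± 0.58, which became 0.23 when the FPKM of *Gapdh* was set equal. *Dusp4* (ENSMUSG00000031530.6, chromosome 8 from 34807297 to 34819894, plus strand) encodes a nuclear phosphatase for Erk, Jnk and p38 and went the other way. Its FPKM was 12.6 with PID (3.36 to 21.8) and 23.5 without it (8.86 to 38.1), a log2 change of -0.85 ± 0.65. The ratio of *Dusp5* to *Dusp4*, which no library scaling can alter, was 4.15 with PID and 0.631 without it. That of *Dusp6* to *Dusp4* was 3.93 and 1.16. The 3 phosphatases together summed to an FPKM of 114 with PID and 65.5 without it.

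Of the Sprouty genes, whose products are recruited to the membrane and blunt signaling from growth factor receptors to Ras and Raf, *Spry1* and *Spry2* were nearly level. *Spry1* (ENSMUSG00000037211.9, chromosome 3 from 37639947 to 37644598, plus strand) had an FPKM of 13.4 with PID (3.14 to 23.7) and 10.9 without it (2.47 to 19.2), a log2 change of 0.28 ± 0.72. *Spry2* (ENSMUSG00000022114.4, chromosome 14 from 105891947 to 105896819, minus strand) had 8.64 (1.11 to 16.2) and 8.10 (0.897 to 15.3), a log2 change of 0.08 ± 0.80. Both small differences turned negative with equal *Gapdh*, to -0.29 and -0.48, and that of *Spry2* also with equal total FPKM, to -0.0096, and with the median of its chromosome subtracted, to -0.17. *Spry4* (ENSMUSG00000024427.6, chromosome 18 from 38586247 to 38601415, minus strand) was the least abundant of the 10 genes in both conditions. Its FPKM was 1.06 with PID (0 to 2.48) and 3.32 without it (0.0983 to 6.54), so that the level in *PID*- cells was 3.14 times as high. On the log2 scale with 1 added to each FPKM the change was -1.07 ± 0.73, and with 0.1 added it was -1.56. The level of *Spry2* was 8.18 times that of *Spry4* in *PID*+ and 2.44 times in *PID*- cells. The summed FPKM of the 3 Sprouty genes was 23.1 with PID and 22.3 in its absence.

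Both Spred genes were lower in *PID*+ cells, by nearly the same factor. Spred proteins carry a Sprouty-like domain and bring the Ras GTPase-activating protein neurofibromin to the membrane. *Spred1* (ENSMUSG00000027351.11, chromosome 2 from 117121374 to 117182279, plus strand) had an FPKM of 14.4 with PID (5.20 to 23.6) and 28.7 without it (11.8 to 45.5), a log2 change of -0.95 ± 0.59. *Spred2* (ENSMUSG00000045671.14, chromosome 11 from 19924375 to 20024026, plus strand) had 20.7 (7.72 to 33.7) and 42.1 (16.9 to 67.3), a log2 change of -0.99 ± 0.60. The level in *PID*+ cells was 0.502 of that in *PID*- cells for *Spred1* and 0.492 for *Spred2*. The ratio of *Spred2* to *Spred1* was 1.44 with PID and 1.47 without it. These were the most abundant feedback transcripts in *PID*- cells, ahead of *Etv4* and *Dusp6*, and stood 4th and 5th in *PID*+ cells. *Nf1*, which encodes neurofibromin, was at 10.6 and 11.7, but it shares its locus with *Omg*, *Evi2*, *Evi2a* and *Evi2b*, which makes its value less certain.

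The PEA3 genes had smaller log2 changes than the Spred genes. *Etv4* (ENSMUSG00000017724.11, chromosome 11 from 101769742 to 101785371, minus strand) had an FPKM of 35.7 with PID (5.86 to 65.6) and 28.4 without it (3.23 to 53.5), a log2 change of 0.32 ± 0.85 that became -0.28 with equal *Gapdh*. *Etv5* (ENSMUSG00000013089.12, chromosome 16 from 22381309 to 22439719, minus strand) had 5.04 (0.556 to 9.53) and 6.77 (1.62 to 11.9), a log2 change of -0.36 ± 0.72 that became -0.90 with equal *Gapdh*. The median over 277 genes of chromosome 16 that averaged an FPKM of 5 or more was -0.50, and relative to that median *Etv5* was at 0.14. The chromosomes of the other 9 genes had medians between -0.13 (chromosome 8, *Dusp4*) and 0.25 (chromosome 3, *Spry1*). *Etv1*, the remaining PEA3 gene, was at 0.290 and 0.0538, below the minimum.

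The order of the levels was therefore rearranged between the conditions, mainly at its top. FPKM is corrected for transcript length, so levels can be set against each other within a condition. In *PID*- cells it ran from *Spred2* and *Spred1* through *Etv4*, *Dusp6*, *Dusp4*, *Dusp5*, *Spry1*, *Spry2* and *Etv5* to *Spry4*. In *PID*+ cells *Dusp5*, *Dusp6* and *Etv4* led, followed by *Spred2*, *Spred1*, *Spry1*, *Dusp4*, *Spry2*, *Etv5* and *Spry4*. The 4 genes at the lower end in *PID*- cells were *Spry1*, *Spry2*, *Etv5* and *Spry4*, and of these only *Spry1* passed another gene, *Dusp4*, in *PID*+ cells. In both conditions the intervals of all 9 pairs of neighbours overlapped. *Dusp6* stood at 2.38 times the level of *Spred2* in *PID*+ and at 0.645 of it in *PID*- cells.

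The depth behind these values was estimated from genes with 1 annotated transcript, whose low FPKM lie on whole multiples of what 1 sequenced fragment is worth. That value and a length correction were picked to put the most low values near whole multiples, so the resulting share is no separate check. With this value, 87.6% of 1052 low values in *PID*+ and 88.5% of 967 in *PID*- cells lay within 0.1 of a whole number of fragments. *Spry4* then rested on about 329 fragments with PID and 1433 without it, the fewest of the 10 genes in both. *Dusp5* rested on about 8147 and 3200 fragments, and *Spred2* on about 6020 and 16949, the latter pair being approximate because *Spred2* has 3 annotated transcripts. The upper bound of the deposited interval lay between 56.3% (*Dusp6*) and 135% (*Spry4*) of the FPKM above it in *PID*+ cells, and the lower bound of *Spry4* was cut at 0. No other protein coding gene overlaps any of the 10 genes in the annotation.

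Among the remaining genes of the same families, levels were mostly higher in *PID*+ cells. Of 10 listed genes 9 were in the table and 7 reached the minimum FPKM, and 6 of these were higher and 1 (*Spred3*) lower, with a median log2 change of 0.68 that became 0.15 with equal *Gapdh*. *Dusp1*, a nuclear phosphatase that prefers p38 and Jnk, had an FPKM of 108 with PID (44.2 to 172) and 19.3 without it (4.86 to 33.8), a log2 change of 2.42 ± 0.66. It was the only gene in the lists on the pathway whose intervals were apart, and it overlaps *Ergic1* in the annotation, which makes its value less certain. *Dusp7* and *Dusp9*, the cytoplasmic Erk phosphatases closest to *Dusp6*, had 49.6 against 25.4 and 12.4 against 6.28 (*PID*+ against *PID*- cells), log2 changes of 0.94 and 0.88. *Spred3* had an FPKM of 7.13 with PID and 8.53 without it, a log2 change of -0.23, and is likewise less certain because it overlaps *Ggn*.

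Other transcripts known to follow Erk did not share a direction either. Of 14 such genes, 10 were higher and 4 lower in *PID*+ cells, none by 3-fold as deposited. Their median log2 change was 0.32 and became -0.29 with equal *Gapdh*. The immediate early genes *Egr1* and *Fos*, both induced through serum response factor and its Erk-regulated partners, went opposite ways. *Egr1* had an FPKM of 7.22 with PID (1.37 to 13.1) and 21.4 without it (8.07 to 34.8), a log2 change of -1.45 ± 0.67. *Fos* had 10.4 (1.61 to 19.2) and 3.52 (0 to 7.44), a log2 change of 1.34 ± 0.84. *Plaur*, the urokinase receptor, came next among the higher genes, with 71.2 and 40.4, and *Ier3* among the lower, with 179.7 and 291.

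**Figure D2:**
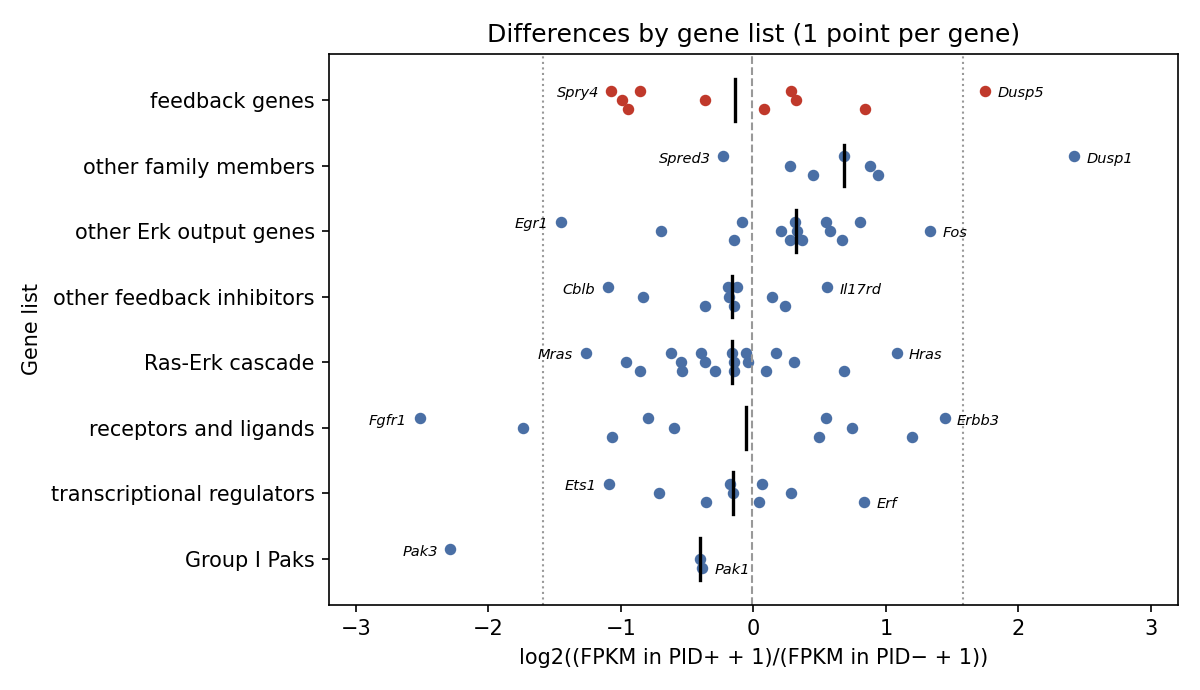
Log2 change of each gene (points) in 8 gene lists, as log2((FPKM in *PID*+ + 1)/(FPKM in *PID*- + 1)), for genes that reached an FPKM of 2. Black bars are list medians, the dashed line is the median of all 11035 genes and the dotted lines mark 3-fold on this scale. The feedback genes (red) lie on both sides of 0, from *Spry4* at -1.07 to *Dusp5* at 1.75.

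Of 11 listed feedback inhibitors outside these families, 10 reached the minimum FPKM, and 3 of these were higher and 7 lower. Their median log2 change was -0.16 and became -0.75 with equal *Gapdh*. *Cblb*, a ubiquitin ligase for receptor tyrosine kinases, had an FPKM of 3.34 with PID and 8.31 without it, a log2 change of -1.10 ± 0.61. *Errfi1*, an Erk-inducible inhibitor of ErbB receptors, had 30.7 and 55.3, a log2 change of -0.83 ± 0.62. *Il17rd* (Sef), which blocks Fgf signaling, was higher, with 3.72 against 2.21 in *PID*- cells, and *Dab2ip*, a Ras GTPase-activating protein, had 32.9 against 27.8. No gene in this list passed 3-fold as deposited.

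In the cascade itself, 5 of 19 genes were higher and 14 lower in *PID*+ cells. The median log2 change was -0.16, or -0.76 with equal *Gapdh*, and none passed 3-fold as deposited. *Mapk3*, which encodes Erk1, had an FPKM of 42.0 with PID (15.9 to 68.1) and 82.8 without it (36.0 to 130), a log2 change of -0.96 ± 0.59. *Mras*, a Ras relative that works with Shoc2 to activate Raf, had 3.62 and 10.1, a log2 change of -1.27. *Hras* was higher, at 82.6 against 38.5 in *PID*- cells, a log2 change of 1.08 ± 0.71. Among receptors and ligands, 10 of 20 genes reached the minimum, of which 5 were higher and 5 lower, with a median of -0.05 that became -0.66 with equal *Gapdh* and 0.52 at a mean FPKM of at least 5. The receptors *Erbb3* and *Met* had log2 changes of 1.44 (17.7 against 5.88) and 1.20 (58.4 against 24.9). *Fgfr1* had an FPKM of 0.454 with PID and 7.34 without it (log2 change -2.52), and *Ereg*, the ErbB ligand epiregulin, 7.96 and 29.0 (-1.74). As deposited, with 1 added to each FPKM, these were the list's 2 genes beyond 3-fold, and by the plain ratio *Erbb3*, at 3.01, passed as well. *Fgfr1* reached the minimum in *PID*- cells alone, which fixed its direction.

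Transcription factors downstream of Erk, with the Capicua complex, were split 4 higher to 5 lower (9 of 10 reached the minimum), with a median of -0.15 that became -0.75 with equal *Gapdh*. *Cic*, which encodes Capicua, had an FPKM of 27.0 with PID and 26.2 without it. *Erf*, an ETS repressor that Erk exports from the nucleus, had 22.8 and 12.4, and *Ets2* 125 and 102. *Ets1* had 4.96 and 11.7, a log2 change of -1.09, and *Elk1*, a partner of serum response factor, had 6.12 and 10.7, a value made less certain by its overlap with *Uxt*. No entry of the table represents the PID transgene, so the labels were not checked on it. By immunoblot, the study found lower MAPK and Akt activity and less cyclin D1 in *PID*+ cells. Kinase activity and protein were not measured in the RNA-seq. The study's PCR found E-cadherin higher and vimentin, *Ccnd1* and *c-myc* lower in *PID*+ cells. Here *Cdh1* was at 192 with PID and 88.0 without it, *Vim* at 19.1 and 997, and *Myc* at 78.8 and 87.5. *Ccnd1* was at 373 (144 to 601) and 300 (124 to 476), a ratio of 1.24, and overlaps *LTO1* in the annotation. As deposited, *Ccnd1* thus went the other way. The PCR was normalized to *Gapdh*, whose ratio here was 1.54, so relative to *Gapdh* the level of *Ccnd1* was lower in *PID*+ cells. Of the kinases that PID targets, *Pak1* had an FPKM of 17.6 with PID and 23.4 without it and *Pak2* 39.5 and 52.6. *Pak3* had 14.7 and 75.9, a log2 change of -2.29 ± 1.30 with intervals that reached down to 0 in both conditions.

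Promoters were available for 7 of the 10 genes in the RefSeq table (GRCm38.p6), in 8 windows of 300 bases around the start of the gene, with no entry used for *Dusp4*, *Spry4* and *Etv4*. The ETS-type letters CCGGAAG, the Capicua octamers TGAATGAA and TGAATGGA and the AP-1 letters TGANTCA were searched on both strands and were in none of the 8 windows, against 8.86%, 1.3%, 1.21% and 7.81% of all 32851 windows. After the sequences were seen, the CArG box, which serum response factor binds, and the hexamer TGAATG, contained in both Capicua octamers, were added. A CArG box was found in 1 of the 8 windows, that of *Dusp5*, and in 1.63% of all windows. *Dusp5* held 2 of them end to end, CCATATTTGG and CCTTATATGG, beginning 82 and 72 bases before the start. TGAATG was in 3 of the 8 windows (*Dusp5* and *Dusp6* with 1 match each, *Etv5* with 3) and in 12.7% of all windows. As deposited, *Dusp5* and *Dusp6* were higher and *Etv5* lower in *PID*+ cells, and a link between motif and direction was not tested. These matches describe letters only, and binding was not measured.

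The 250 bases before the RefSeq start are shown for the 2 genes with the highest and the 2 with the lowest log2 change among those with a promoter entry. The CArG box and TGAATG were added after the sequences were seen, so where they fall here is a description only. Capitals mark the CArG boxes and TGAATG on either strand. They lie at chr19:53528895-53529144 (*Dusp5*), chr10:99262981-99263230 (*Dusp6*), chr2:117120821-117121070 (*Spred1*) and chr11:19924192-19924441 (*Spred2*), all on the plus strand of GRCm38.p6 and written 5′ to 3′. Neither Spred window holds a capital letter. The share of G and C was 64.0% in *Dusp5*, 56.4% in *Dusp6*, 70.8% in *Spred1* and 56.0% in *Spred2*.
Dusp5: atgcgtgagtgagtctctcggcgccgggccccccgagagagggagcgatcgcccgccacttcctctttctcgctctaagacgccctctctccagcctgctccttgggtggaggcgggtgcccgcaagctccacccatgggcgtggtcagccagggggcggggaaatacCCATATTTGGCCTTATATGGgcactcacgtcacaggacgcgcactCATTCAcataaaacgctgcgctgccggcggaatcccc
Dusp6: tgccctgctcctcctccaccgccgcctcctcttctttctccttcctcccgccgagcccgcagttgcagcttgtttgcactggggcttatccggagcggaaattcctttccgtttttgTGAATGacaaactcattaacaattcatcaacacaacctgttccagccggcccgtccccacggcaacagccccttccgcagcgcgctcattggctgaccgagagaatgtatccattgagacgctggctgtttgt
Spred1: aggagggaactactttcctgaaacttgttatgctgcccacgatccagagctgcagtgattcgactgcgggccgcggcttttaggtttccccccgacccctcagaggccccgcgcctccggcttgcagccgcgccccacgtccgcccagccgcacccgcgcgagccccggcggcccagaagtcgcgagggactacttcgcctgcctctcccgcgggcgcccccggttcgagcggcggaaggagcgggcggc
Spred2: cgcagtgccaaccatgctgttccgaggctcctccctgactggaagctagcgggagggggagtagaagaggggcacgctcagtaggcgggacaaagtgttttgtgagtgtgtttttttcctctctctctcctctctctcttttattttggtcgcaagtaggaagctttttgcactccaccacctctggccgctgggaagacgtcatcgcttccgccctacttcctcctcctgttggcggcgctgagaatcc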

How the data were processed

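Total RNA of the 6 samples was selected for poly(A) and sequenced. Reads were cleaned with CutAdapt and aligned by the authors with TopHat and Bowtie2 to GRCm38.p3 with protein coding gene models, whose release is not given in the sources used here. The reads of a condition were merged into a single alignment, and the deposited FPKM (1 per gene and condition, 43932 rows) were calculated by the authors with CuffDiff, together with the bounds of its confidence interval. CuffDiff was run with compatible hits normalization, and the size factors between conditions are not given. The table's treated condition was read as PID+ and its untreated condition as PID-, after the treatments in the labels. Tests on counts or FPKM per sample, planned in case the table held them, could not be run on pooled values.

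Symbols matched 21734 identifiers, and 7 genes without status OK in both conditions were left out. Log2 changes used FPKM + 1. Errors took a deposited interval as 2 SD on either side. Percentages refer to 11035 genes that reached an FPKM of 2 in either condition. Positions and transcripts came from Gencode M21 (GRCm38), and the value of a fragment from genes with 1 transcript, with 180 (PID+) and 190 bases (PID-) subtracted from their length. The 10 genes and the gene lists were chosen with earlier results of these data known. From each list the 2 genes with the highest and the 2 with the lowest log2 change are named, with all Group I Paks, except for a gene that is not reported here. Dusp9, Nf1, Cic and Etv1 were named after their values were seen. Calculations were tested on simulated data. Python 3.11.15, numpy 2.4.6, pandas 2.3.3 and matplotlib 3.10.9 were used.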

Additional observations from a re-analysis of the deposited data

How the results depend on the processing

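The settings tried were equal *Gapdh*, equal medians, equal upper quartiles and equal total FPKM, 0.1 as pseudocount, the chromosome median subtracted, no filter, a mean FPKM of at least 5, and 2-fold in place of 3-fold. Equal *Gapdh* and equal total FPKM shift plain FPKM ratios by -0.63 and -0.10 on the log2 scale, and less where 1 is added to a low FPKM. Of 60 log2 changes of the 10 genes under 6 of these settings, 6 changed sign, all in *Spry1*, *Spry2*, *Etv4* and *Etv5*. *Dusp5* ranged from 1.15 to 1.81, *Dusp4* from -1.44 to -0.73, *Spred1* from -1.54 to -0.95 and *Spred2* from -1.59 to -0.99. With equal *Gapdh*, 0 feedback genes were 3-fold higher and 1 (*Spred2*) was 3-fold lower, the median of the Group I Paks was -1.02, and 91 genes in all were 3-fold higher and 717 lower, so that 11.3% of these were higher against 37.8% as deposited (229 and 377). At 2-fold, 1 feedback gene was lower. With the plain ratio of FPKM, chosen after the data were seen, 375 genes were 3-fold higher and 518 lower, among them 1 feedback gene lower (*Spry4*). With a pseudocount of 0.1, 356 genes were 3-fold higher, and with a mean FPKM of at least 5, 144 were higher and 221 lower, since fewer genes were tested. The median of the feedback genes ranged from -0.69 (equal *Gapdh*) to 0.08 (mean FPKM of at least 5, which leaves out *Spry4*). Leaving out samples and count-based tests were not run, since the table holds pooled values.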
